A study of Mus musculus with 6 samples.

Results

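Fragments of the nuclear lysine tRNAs were counted in small RNA libraries. The RNA came from primary smooth muscle cells of the mouse pulmonary artery, which form the contractile layer of that vessel's wall. A sequence was taken as a tRNA-Lys fragment when each annotation the deposited table gives it is a mature nuclear tRNA-Lys, and this rule held for 2085 of 38798 distinct sequences. They carried 512412 of 8966706 counts, or 5.71% of the table. The 3 hypoxia libraries came from wild-type cells kept at 3% oxygen for 24 hours, and the 3 normoxia libraries from wild-type cells under standard culture. Library preparation followed Pandora-seq, a method that treats RNA with enzymes to take off modifications, so that more tRNA fragments can be cloned. The design calls the replicates biological and sets out to find tRNA-derived small RNAs (tsRNAs) that respond to hypoxia. The table holds only fragments of tRNAs, so the labelled cell type could not be checked against marker genes.

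Lysine is carried to the ribosome by a pair of nuclear-encoded isoacceptors: tRNA-Lys-CTT reads AAG codons, and tRNA-Lys-TTT reads AAA and AAG codons through a wobble uridine that carries a thiol group. Mature tRNAs fold into an acceptor stem, a D arm, an anticodon arm and a T arm, and all end in CCA, which is added after transcription. Cuts in the anticodon loop, made by angiogenin among other ribonucleases under stress, leave long fragments of either side, while cuts in the D and T arms leave shorter fragments from either end. tRNA-Lys-TTT is also known as the primer from which HIV reverse transcriptase starts.

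Of the 2085 sequences, 1519 with 229100 counts were assigned to mature-tRNA-Lys-CTT (CTT), 550 with 281845 counts to mature-tRNA-Lys-TTT (TTT) and 16 with 1467 counts to both. The table puts 97 of them in the 5' end class, 1886 in the internal class, 57 in the 3' end class without CCA and 45 in the CCA class. Both tRNAs could be assembled from the overlapping fragments themselves. The sequences below run from the first base to the CCA tail. The major form of each was assembled and has the anticodon in capitals. The minor form was not assembled: it is the major form with each other base that held at least 1% of the coverage of its position written in, in capitals.
tRNA-Lys-CTT major: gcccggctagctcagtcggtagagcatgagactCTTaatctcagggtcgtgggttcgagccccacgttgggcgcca
tRNA-Lys-CTT minor: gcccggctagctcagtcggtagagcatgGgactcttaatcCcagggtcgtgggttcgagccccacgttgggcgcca
tRNA-Lys-TTT major: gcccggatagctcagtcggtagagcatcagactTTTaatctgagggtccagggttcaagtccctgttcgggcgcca
tRNA-Lys-TTT minor: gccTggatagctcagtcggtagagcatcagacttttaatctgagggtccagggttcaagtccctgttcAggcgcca

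Each form was 76 nt long, 73 nt encoded by the gene and the CCA tail, and the major forms of CTT and TTT were identical at 64 of the 76 positions. Only 1 of the 12 differing positions, position 7, lies before position 28, which leaves the stretch from 8 to 27 as the source of the 16 sequences that the table could not assign to either tRNA. The major form matched 88.4% of CTT counts exactly and the major or the minor form 99.5%. For TTT these shares were 97.8% and 99.98%. Of all members, 2084 could be placed on these sequences with at most 3 mismatches. All 97 sequences of the 5' end class began at position 1, all 45 of the CCA class ended at position 76, and all 57 of the 3' end class ended at position 73, the last base encoded by the gene. The RefSeq table of assembly GRCm38, that of the mm10 build named in the submitters' processing notes, lists 26 nuclear lysine tRNA genes of 73 nt on 12 chromosomes, 24 of them CTT and 2 TTT. The TTT genes listed there are n-TKttt23 at chr13:21907940-21908012 and n-TKttt22 at chr13:21971788-21971860. The gene sequences were not used here, so no fragment was given to a single gene.

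The minor form of CTT differed from the major one by A29G and T41C, counted from 1 at the 5' end with the base of the major form first. Positions 29 and 41 face each other in the anticodon stem, and the exchange turns an A-U pair into a G-C pair. Among fragments that span both positions, 35570 counts had the major pair and 9449 the minor pair, and no count had any other combination. With the counts of each library scaled to the same total, G29 made up 20.04% of the CTT coverage at the position. Per library it made up 18.7%, 22.8% and 21.8% in hypoxia, against 17.3%, 22.0% and 22.1% in normoxia. The groups overlapped. The minor form of TTT carried C4T and G69A, which pair in the acceptor stem, in 2.60% and 1.11% of the scaled coverage over them. No fragment was long enough to hold both, so whether they lie on the same tRNA could not be seen.

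The 3 hypoxia libraries held 510519, 2563749 and 1713960 tsRNA counts, and the 3 normoxia libraries held 330787, 2217965 and 1629726. Libraries numbered 1 were the shallowest in both groups, and in the whole table the 5' end class held a share of 36.6% in hypoxia 1 and 34.6% in normoxia 1, against 52.96% to 58.6% in the other 4. Counting error on the tRNA-Lys share was small: the widest 95% exact Clopper-Pearson interval, in normoxia 1, ran from 6.21% to 6.38%, and it covers counting error only, since reads without molecular identifiers are not independent molecules. Of the 2085 sequences, 500 had a count in all 6 libraries and 580 in only 1.

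The fragments of the lysine isoacceptors differed in makeup in every library. Fragments that start at the first base dominated TTT, with 69.3%, 90.9% and 90.4% of its counts in hypoxia and 70.5%, 90.5% and 89.2% in normoxia. In CTT the 5' end class held 8.65%, 44.1% and 47.7% in hypoxia and 8.01%, 43.2% and 36.9% in normoxia. The CTT share was below the TTT share in 6 of 6 libraries, by 52.0 ± 8.01 percentage points (SD, n = 6). A two-sided exact sign-flip permutation test over the 6 libraries gave p = 0.03125, the smallest it can give. It gave the same p for each of 8 such measures of makeup, chosen after their values were seen, and the Benjamini-Hochberg adjusted p over the 8 was also 0.03125. That test takes the 6 libraries as independent. The difference moved with the replicate number, with means of -61.6, -47.0 and -47.5 points for numbers 1, 2 and 3, and with these 3 pairs as units the exact p was 0.25 for each of the 8 measures, the smallest that 3 pairs allow. The mean TTT share was 83.5%, the highest of the 39 nuclear tRNAs with a mean of at least 1000 CPM (counts per 1000000 tsRNA counts), among which CTT ranked 22. In level TTT and CTT stood side by side in that order, in place 6 with 28712 CPM and place 7 with 27903 CPM. All these ranks count only sequences assigned to 1 tRNA alone. Sequences shared between tRNAs are left out, which can lower the 5' end share and the level of other tRNAs. His-GTG, for example, had 0% in the 5' end class by this count.

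**Figure D1:**
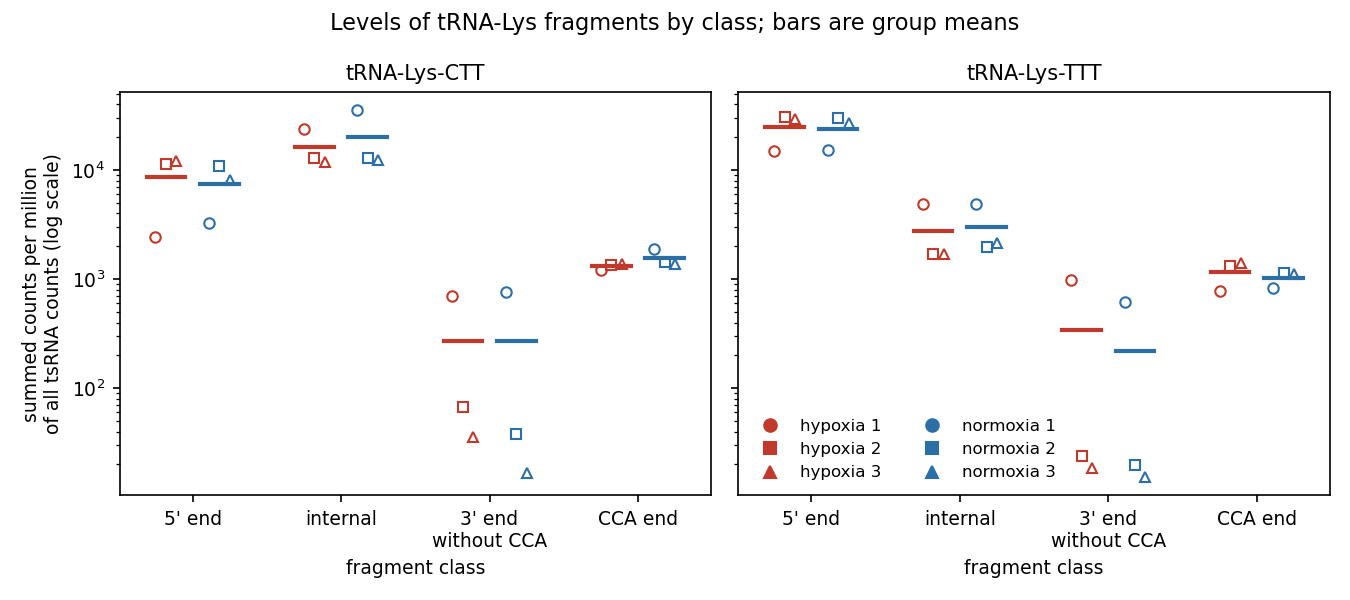
Summed level of tRNA-Lys-CTT and tRNA-Lys-TTT fragments of each class in CPM, on a log axis. Each symbol is a library (hypoxia red, normoxia blue; circle, square and triangle for replicates 1, 2 and 3) and each bar a group mean (n = 3). The libraries numbered 1 stand apart in both groups, low in the 5' end class and high in the internal and 3' end classes. At this scaling the groups overlap in each class shown except the CTT CCA class.

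In TTT, 5' fragments had a pair of preferred ends, both in the D arm. The 3 most abundant TTT sequences, shown because they make up most of this tRNA's counts, are
TTT 1-19: gcccggatagctcagtcgg
TTT 1-15: gcccggatagctcag
TTT 1-20: gcccggatagctcagtcggt

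The fragment of 19 nt had 6997, 13148 and 11925 CPM in hypoxia, against 6769, 12259 and 12603 CPM in normoxia. The fragment of 15 nt had 5420, 9976 and 10623 CPM in hypoxia, against 5233, 10327 and 8265 CPM in normoxia. In both, the libraries numbered 1 were the lowest of their group and the groups overlapped. Fragments ending at 15 made up 31.2% to 36.7% of the TTT 5' counts over the 6 libraries and those ending at 19 made up 41.6% to 49.2%. From 98.4% to 99.2% of all TTT 5' counts ended between 15 and 21. Since the table holds no sequence under 15 nt, shorter fragments could not be seen and 15 nt is the lower edge of the data.

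CTT shared the end at 15 but not the preference for 19. Its leading 5' fragments were
CTT 1-15: gcccggctagctcag
CTT 1-19: gcccggctagctcagtcgg
CTT 1-35: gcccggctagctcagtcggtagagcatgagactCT

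The last of these ends inside the anticodon, after the bases in capitals. Fragments that end at 15 held 39.4% to 65.1% of CTT 5' counts, more than in TTT in 6 of 6 libraries. Those that end at 19 held 5.34% to 15.2%, less than in TTT in 6 of 6. The fragment of 15 nt varied widely, with 948, 6337 and 7774 CPM in hypoxia and 1578, 6159 and 3431 CPM in normoxia. The spread within each group exceeded the distance between the group means.

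**Figure D2:**
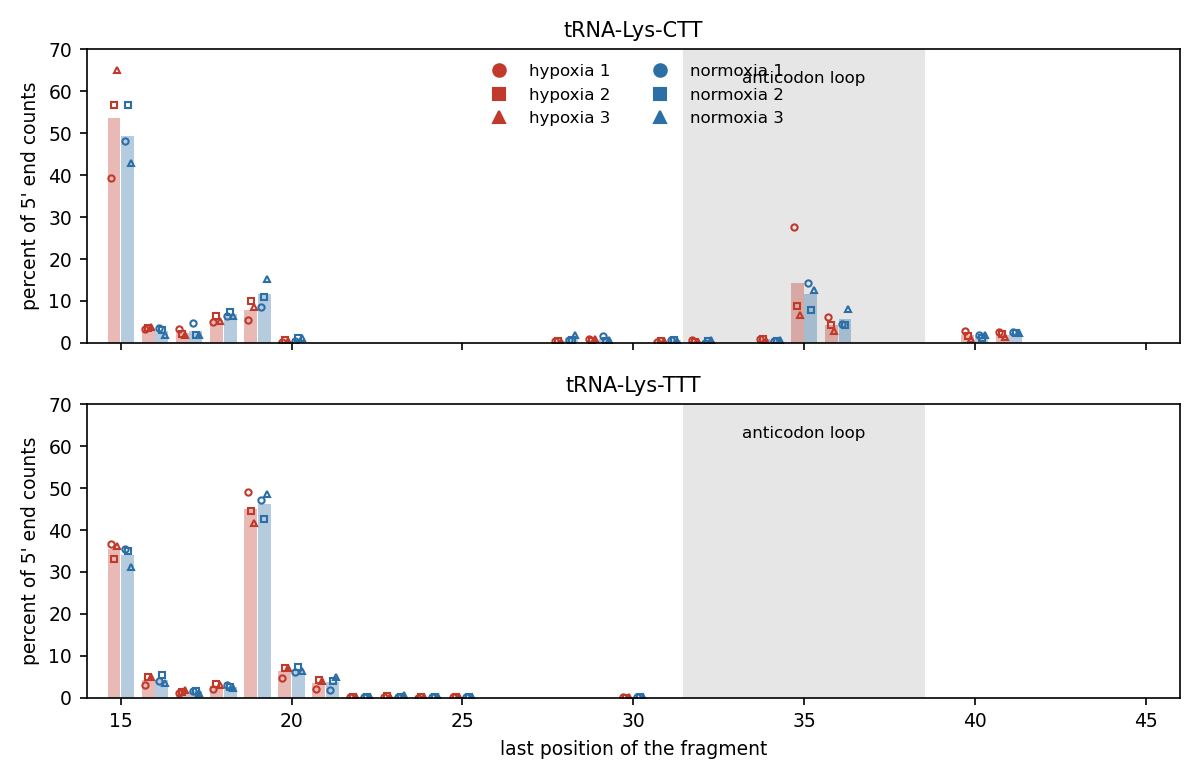
Share of the 5' end counts of each tRNA (percent) that end at each position of the mature tRNA, for positions with a mean of at least 20 CPM. Bars are group means (hypoxia red on the left, normoxia blue on the right; n = 3), symbols are libraries, and the grey band is the anticodon loop, positions 32 to 38. TTT ends cluster at 15 and 19, while CTT ends lie at 15, at 18 and 19, at 35 and 36 and at 40 and 41.

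Long 5' fragments that end in the anticodon loop came from CTT and hardly from TTT. Positions 32 to 38, the loop, held the ends of 35.5%, 14.9% and 10.5% of CTT 5' counts in hypoxia and 19.98%, 13.1% and 22.5% in normoxia. For TTT the same share was 0.111% to 0.260% over the 6 libraries. The difference was 19.2 ± 8.995 percentage points (SD, n = 6), in the same direction in 6 of 6 libraries (exact sign-flip p = 0.03125, and 0.25 over the 3 pairs). In absolute level, CTT fragments ending at 35 or 36 had 813, 1483 and 1139 CPM in hypoxia, against 623, 1323 and 1675 CPM in normoxia (two-sided exact permutation p = 0.9). TTT fragments with the same ends had 13.7, 13.7 and 12.3 CPM in hypoxia, against 6.05, 9.92 and 35.6 CPM in normoxia. Normoxia 3 was the highest library for both tRNAs, and in neither were the groups separate.

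Fragment length followed the same division. Fragments of at least 30 nt made up 21.2% to 46.7% of CTT counts and 0.396% to 2.74% of TTT counts, a difference of 30.1 ± 10.9 percentage points (SD, n = 6) in the same direction in 6 of 6 libraries. Among the 39 nuclear tRNAs CTT ranked 9 and TTT 35 by this share, again with only the sequences assigned to a single tRNA counted. TTT was concentrated in 15 to 20 nt, with 81.9%, 94.3% and 94.2% of its counts there in hypoxia and 84.4%, 94.2% and 92.7% in normoxia. CTT had 32.8%, 63.1% and 69.1% of its counts in that range in hypoxia and 34.4%, 67.9% and 62.3% in normoxia. The remainder of CTT had a peak near 36 nt, with 1395, 1862 and 1282 CPM at that length in hypoxia and 2183, 1246 and 1451 CPM in normoxia. In libraries numbered 1 a peak at 38 nt was higher still, with 2104 CPM in hypoxia 1 and 3117 CPM in normoxia 1, against 203 to 308 CPM in the other 4 libraries.

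**Figure D3:**
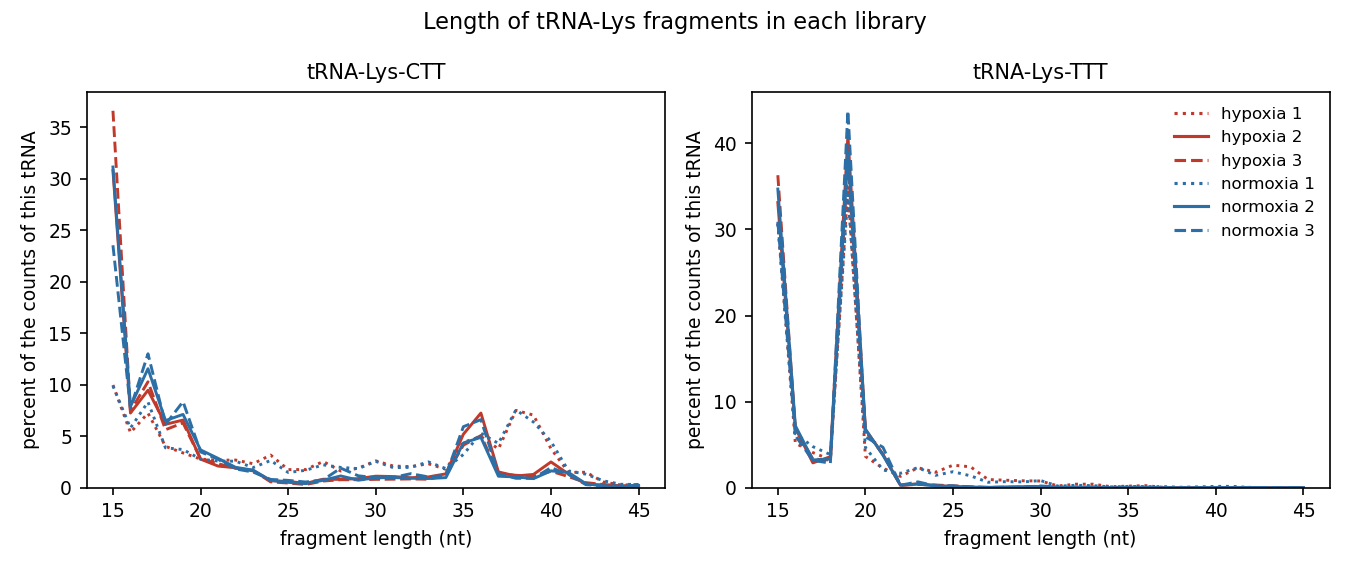
Length distribution of the CTT (left) and TTT (right) fragments in each library, in percent of the counts of that tRNA in that library, against length in nt. Hypoxia is red and normoxia blue, and dotted, solid and dashed lines are replicates 1, 2 and 3. TTT has peaks at 15 and 19 nt, and CTT has a peak at 15 nt and a second group of lengths near 36 nt, at 38 nt in the dotted libraries.

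Most CTT counts outside the 5' end class were internal fragments, from 46.7% to 85.6% of CTT counts over the 6 libraries against 5.08% to 22.8% in TTT. The 3 most abundant are shown since they mark the main internal ends, with the anticodon in capitals where it is whole:
CTT 17-33: cggtagagcatgagact
CTT 20-57: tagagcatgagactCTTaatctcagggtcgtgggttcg
CTT 21-56: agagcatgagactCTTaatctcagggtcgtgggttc

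The fragment from 17 to 33 starts in the D loop and stops just before the anticodon. It had 509, 1301 and 1378 CPM in hypoxia, against 1351, 1613 and 1595 CPM in normoxia. It was lower in hypoxia in 3 of 3 same-numbered pairs, the groups overlapped, and the edgeR quasi-likelihood test gave an adjusted p of 1.0 with the group alone and of 0.77 with the replicate number as a block. The fragment from 20 to 57 runs from the D loop through the whole anticodon arm into the T loop. It had 1479, 145 and 159 CPM in hypoxia, against 2331, 120 and 89.0 CPM in normoxia. The libraries numbered 1 were high in both groups. The fragment from 21 to 56 had 511, 989 and 651 CPM in hypoxia, against 979, 469 and 544 CPM in normoxia.

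Internal CTT fragments that end anywhere from 55 to 57, in the T loop, summed to 11036, 4492 and 3722 CPM in hypoxia and 16908, 3383 and 2711 CPM in normoxia. They were 39.4% of CTT counts in hypoxia 1 and 41.1% in normoxia 1, against 12.4% to 17.5% in the other libraries. Few CTT fragments crossed the T loop: position 59 was covered by 0.766% to 1.14% of CTT counts in replicates 2 and 3, and by 12.9% in hypoxia 1 and 11.5% in normoxia 1. TTT had no such series. Its most abundant internal fragment ran from 50 to 72 and lay mostly in libraries numbered 1, with 347, 30.03 and 16.3 CPM in hypoxia and 345, 21.6 and 31.3 CPM in normoxia. Other internal TTT fragments lacked the first bases of the 5' end class and kept its end at 19: the one from 5 to 19 had 261, 68.3 and 53.7 CPM in hypoxia and 157, 95.6 and 131 CPM in normoxia.

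**Figure D4:**
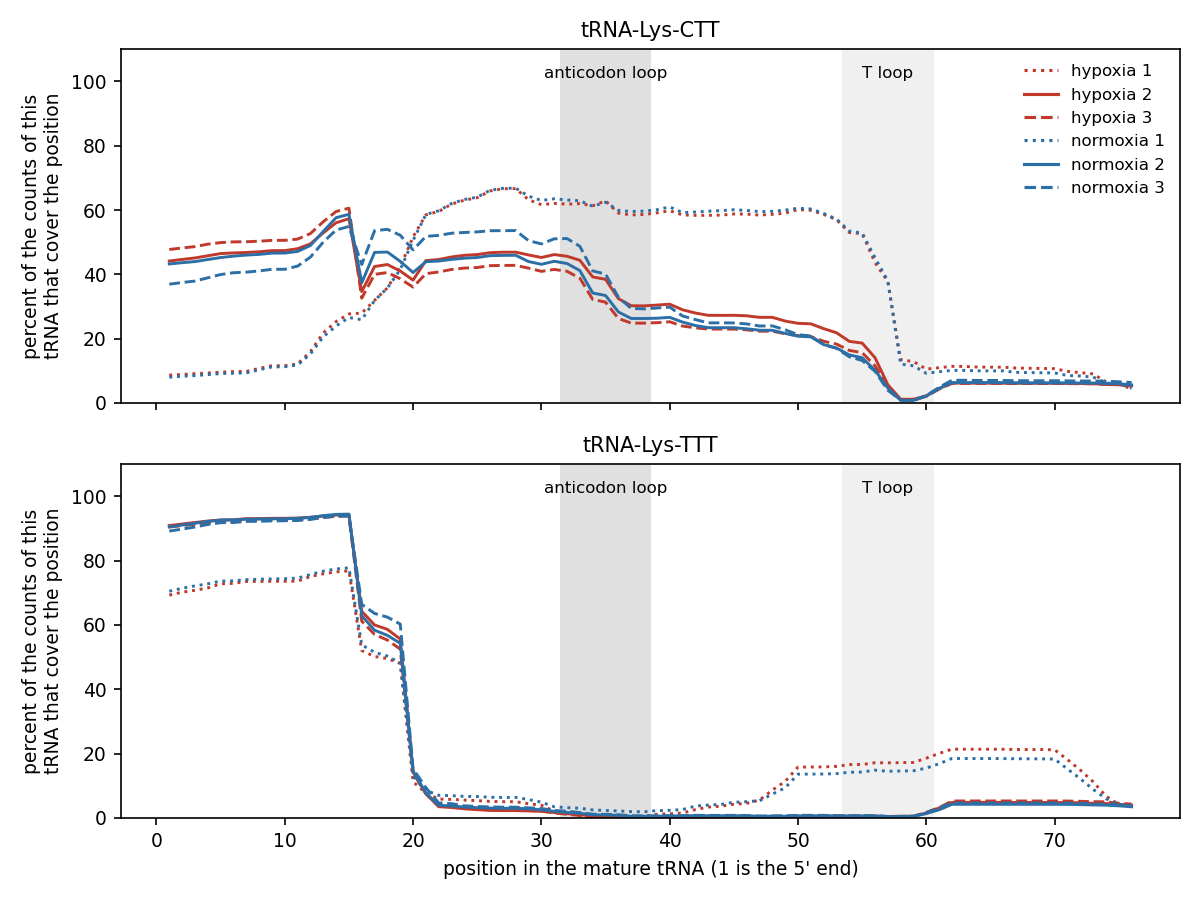
Percent of the CTT (top) and TTT (bottom) counts of each library that cover each position of the mature tRNA, with the anticodon loop and the T loop shaded. Hypoxia is red and normoxia blue, with dotted, solid and dashed lines for replicates 1, 2 and 3. TTT coverage drops after positions 15 and 19. In the dotted libraries CTT coverage runs through the anticodon loop and drops in the T loop. In replicates 2 and 3 CTT coverage drops after 15, inside the anticodon loop and again in the T loop. There it was 40.9% to 51.1% at position 32 and 24.8% to 30.2% at position 37.

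Fragments of the CCA class keep the 3' end of the mature tRNA with its tail. Except for CTT in the libraries numbered 1, they began mainly at 60, 61 or 62, in the T arm, and the most abundant of each tRNA are shown:
CTT 61-76: cccacgttgggcgcca
TTT 62-76: cctgttcgggcgcca

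The CTT fragment of 16 nt had 174, 569 and 529 CPM in hypoxia, against 290, 560 and 532 CPM in normoxia. The TTT fragment of 15 nt had 290, 578 and 678 CPM in hypoxia, against 351, 557 and 438 CPM in normoxia. The libraries numbered 1 were low for both, and the groups overlapped. The whole CCA class of CTT summed to 1211, 1359 and 1363 CPM in hypoxia and 1880, 1424 and 1386 CPM in normoxia. In CPM every hypoxia library lay below every normoxia library, by little except for normoxia 1. The edgeR fit of tsRNAs used TMM scaling factors of 1.45 and 1.51 for the libraries numbered 1 and 0.80 to 0.85 for the others. Scaled by these factors, hypoxia 2 and 3 lay above normoxia 1 and the groups overlapped. The log2 fold change of this class was -0.14 with the group alone (SE 0.44, edgeR adjusted p = 0.999). CCA fragments of 18 nt or more were found mainly for CTT and in the libraries numbered 1, at 758 CPM in hypoxia 1 and 1137 CPM in normoxia 1, against 63.6 to 104 CPM in the other 4. The 3' end class without CCA also lay mainly in the libraries numbered 1, with 1681, 91.3 and 54.3 CPM over both tRNAs in hypoxia and 1385, 58.2 and 31.9 CPM in normoxia. It was not mainly CTT: CTT had 701 CPM and TTT 979 CPM in hypoxia 1, and 762 and 623 CPM in normoxia 1.

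The total of tRNA-Lys fragments did not separate hypoxia from normoxia. It was 49920, 59226 and 57955 CPM in hypoxia and 62974, 58453 and 52325 CPM in normoxia, with means of 55700 ± 5046 and 57918 ± 5345 CPM (SD, n = 3 each; two-sided exact permutation p = 0.6, where 3 against 3 cannot go below 0.1). In bulk libraries fewer contributing cells and less fragment RNA per cell cannot be told apart. CTT had 27972, 25649 and 25258 CPM in hypoxia and 41178, 25440 and 21920 CPM in normoxia (exact p = 0.9). TTT had 21739, 33448 and 32550 CPM in hypoxia and 21476, 32857 and 30205 CPM in normoxia (exact p = 0.7). Normoxia 1 was the highest library for CTT and the lowest for TTT, and the groups overlapped in both. The 16 shared sequences had 210, 129 and 146 CPM in hypoxia and 320, 156 and 201 CPM in normoxia, lower in hypoxia in 3 of 3 pairs but overlapping (exact p = 0.3). The most abundant of them, from 12 to 26, is
shared 12-26: tcagtcggtagagca

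It had 97.9, 33.5 and 32.7 CPM in hypoxia, against 178, 62.7 and 79.2 CPM in normoxia, a log2 fold change of -0.98 (SE 0.60; edgeR adjusted p = 1.0, and 0.629 with the block). It was lower in 3 of 3 pairs, and hypoxia 1 lay above normoxia 2 and 3.

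The makeup of the family also overlapped between the groups. The 5' end class held 35.01%, 70.4% and 71.6% of tRNA-Lys counts in hypoxia and 29.3%, 69.7% and 66.95% in normoxia (exact p = 0.5). Fragments of at least 30 nt held 27.3%, 11.9% and 9.55% in hypoxia and 31.3%, 9.53% and 11.2% in normoxia (exact p = 0.9). Among 5' counts of both tRNAs, those ending in the anticodon loop held 5.14%, 4.17% and 3.14% in hypoxia and 3.72%, 3.63% and 5.39% in normoxia (exact p = 0.9). In each of these shares the SD within each group exceeded the distance between the group means. The CTT share of single-anticodon counts, the internal share and the CCA share had exact p of 0.9, 0.5 and 0.9.

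None of the 9 sums by anticodon and class was called by the edgeR quasi-likelihood test, with the group alone or with the replicate number as a block, and none of the 276 sums of the whole table was (0%), at an adjusted p under 0.05. For these 9 sums no unadjusted p was under 0.05 in either fit, nor with DESeq2 or limma voom. Over the 276 sums such a p was found for 0.725% higher and 0.362% lower with the group alone, and for 5.80% higher and 5.07% lower with the block. The intervals were narrower with the block, and the common dispersion of the tsRNA table was 0.213 with it and 0.706 without. The TTT 5' end sum differed by a log2 fold change of 0.10 with the group alone (SE 0.77) and of 0.09 with the block (95% interval from -0.25 to 0.43). The CTT 5' end sum differed by 0.27 with the group alone (SE 1.02) and by 0.09 with the block (95% interval from -0.42 to 0.61). The CTT internal sum gave -0.20 with the group alone (SE 0.31) and -0.18 with the block (95% interval from -0.58 to 0.21). With the block, the widest interval was that of the CTT 3' end sum without CCA, from -0.24 to 1.42. The median of the 9 sums was 0.10, against 0.06 over all 276, and those of 21 other nuclear amino acid lists ran from -0.31 to 0.41.

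**Figure D5:**
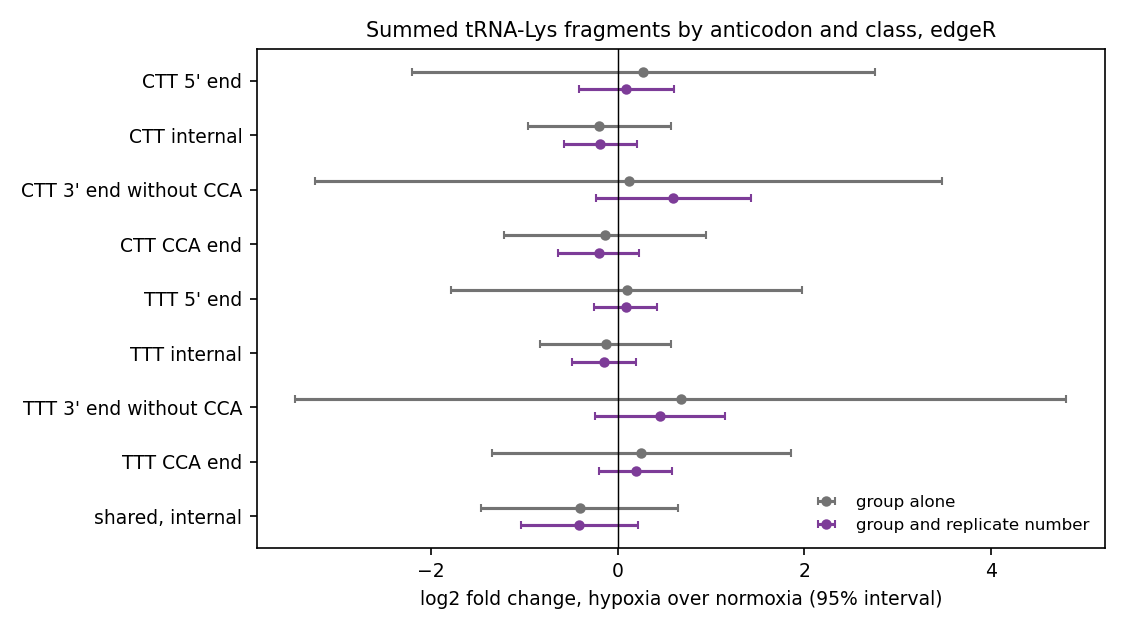
Log2 fold change of hypoxia over normoxia with its 95% interval for the 9 tRNA-Lys sums by anticodon and class, fitted over all 276 sums of the table with edgeR. Grey points come from the fit with the group alone and purple points from the fit with the replicate number as a block. All 18 intervals include 0.

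Of the 2085 sequences, 475 with 96.2% of the tRNA-Lys counts passed the filter on low counts: 370 CTT, 97 TTT and 8 shared. By edgeR's quasi-likelihood test at an adjusted p under 0.05, 0 of 475 were called with the group alone, where 0 of 6452 were called in the whole table (0%). With the replicate block 0 of 475 were called, against 10 of 6452 in the whole table (0.155%). At an unadjusted p under 0.05, 1 tRNA-Lys sequence was higher and 4 were lower with the group alone, against 0.279% higher and 0.418% lower in the whole table. DESeq2 gave 1 higher and 5 lower of the 475, against 34 higher and 50 lower of the 6452. Limma voom gave 1 higher and 4 lower of the 475, against 56 higher and 53 lower of the 6452. With the block 2 were higher and 19 lower, against 3.41% and 2.98% in the whole table.

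More single fragments leaned lower than higher in hypoxia. Of the 475, 98 (20.6%) were lower in 3 of 3 same-numbered pairs and 34 (7.16%) were higher in 3 of 3, against 13.4% lower and 15.0% higher among all 6452. The groups did not overlap for 22 lower and 6 higher tRNA-Lys sequences, against 2.51% lower and 2.32% higher in the whole table. The median log2 fold change was -0.18 for the 475 and 0.02 for all 6452. For the 475 it was -0.23 with library totals as the only scaling, -0.12 with the block and -0.096 with limma voom. With replicates 2 and 3 alone it was -0.087 for the 483 tRNA-Lys sequences tested. These sequences overlap one another and share their source, so they are not separate observations, and the list as a whole was not tested. By end position, of the CTT fragments ending from 15 to 27 in or after the D arm, 6 of 24 were lower in 3 of 3 pairs and 3 were higher. Of those ending from 28 to 31, in the 5' side of the anticodon stem, 10 of 34 were lower and 1 was higher. Of those ending from 32 to 38, in the anticodon loop, 20 of 78 were lower and 6 higher. Of those ending from 39 to 53, 30 of 112 were lower and 2 higher, and of those ending from 54 to 60, in the T loop, 10 of 103 were lower and 8 higher. Of those ending from 61 to 76, 3 of 19 were lower and 0 higher. TTT fragments went both ways. Of those ending from 15 to 27, 7 of 37 were lower and 3 higher, and of those ending from 28 to 31, 5 of 19 were lower and 2 higher. Of those ending from 32 to 38, 2 of 20 were lower and 4 higher, with a median log2 fold change of 0.22. The few that ended from 39 to 53 were lower in 3 of 3 cases, and of those ending from 54 to 60, 0 of 3 were lower and 0 higher. Of the TTT fragments ending from 61 to 76, 0 of 15 were lower and 4 higher, also with a median of 0.22.

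The 3 lower and then the 3 higher sequences with the smallest unadjusted p in their direction, among those with a mean of at least 10 CPM and with 1 per overlapping family, lie across the anticodon or just before it. They were chosen by their difference, so the values below describe them and are no support for it. They are shown with the anticodon in capitals where it is whole and, for the minor CTT form, the base G29:
TTT 31-46: actTTTaatctgaggg
TTT 16-32: tcggtagagcatcagac
CTT 31-45: actCTTaatctcagg
TTT 12-31: tcagtcggtagagcatcaga
CTT 25-40 A29G: catgGgactcttaatc
CTT 16-34 A29G: tcggtagagcatgGgactc

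TTT 31-46 spans the anticodon loop and had 0, 7 and 4 counts in hypoxia and 8, 34 and 36 counts in normoxia, or 0, 2.73 and 2.33 CPM against 24.2, 15.3 and 22.1 CPM. Its log2 fold change was -3.21 (SE 0.96), and it did not pass the threshold (edgeR adjusted p = 1.0, and 0.273 with the block). It rests on few reads and reached the mean of 10 CPM only through normoxia, where it averaged 20.5 CPM, against 1.69 CPM in hypoxia.

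TTT 16-32 had 9.79, 1.95 and 7.001 CPM in hypoxia and 30.2, 28.9 and 25.2 CPM in normoxia, a log2 fold change of -2.29 (SE 0.78; edgeR adjusted p = 1.0, and 0.339 with the block). CTT 31-45, which covers the same stretch of the CTT anticodon loop as TTT 31-46, had 5.88, 5.46 and 2.92 CPM in hypoxia and 21.2, 11.7 and 21.5 CPM in normoxia, a log2 fold change of -1.94 (SE 0.74; edgeR adjusted p = 1.0). Both reached the mean of 10 CPM through normoxia, and neither passed the adjusted threshold.

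In the other direction, TTT 12-31 had 35.3, 30.8 and 18.1 CPM in hypoxia and 12.1, 10.4 and 3.07 CPM in normoxia, a log2 fold change of 1.74 (SE 0.73; edgeR adjusted p = 1.0, and 0.525 with the block). CTT 25-40 with G29 had 27.4, 11.3 and 19.3 CPM in hypoxia and 12.1, 6.76 and 4.30 CPM in normoxia, and CTT 16-34 with G29 had 17.6, 17.6 and 19.8 CPM in hypoxia and 12.1, 7.21 and 8.59 CPM in normoxia. The groups overlapped for CTT 25-40, and the edgeR unadjusted p was 0.0914 for it and 0.161 for CTT 16-34. TTT 12-31, CTT 25-40 and CTT 16-34 averaged 8.51, 7.72 and 9.30 CPM in normoxia. They thus reached the mean of 10 CPM only through hypoxia, and they too rest on few reads. These fragments lie in the same region as the lower ones and differ from them in their ends by a few bases. The summed level of internal fragments that end in the anticodon loop was 3389, 4020 and 4348 CPM for CTT in hypoxia, against 5312, 4728 and 4494 CPM in normoxia. It was lower in 3 of 3 pairs, by ratios of 0.638, 0.850 and 0.967, and did not overlap in CPM (exact p = 0.1, the smallest possible). That separation depends on the scaling. With the TMM factors of the edgeR fit of tsRNAs, hypoxia 2 and 3 lay above normoxia 1 and the groups overlapped. The corresponding TTT sum was 259, 334 and 283 CPM in hypoxia and 333, 377 and 403 CPM in normoxia, lower in 3 of 3 pairs and overlapping by a margin under 1 CPM (exact p = 0.2). These sums were chosen after their values were seen.

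The lists set beside tRNA-Lys held no called sums either. Among tRNAs known to give many long 5' fragments, namely His-GTG, Gly-CCC, Gly-GCC, Glu-TTC, Glu-CTC, Val-AAC, Val-CAC and Lys-CTT, 0 of 34 sums were called and the median log2 fold change was 0.21. In the tRNAs with a thiolated wobble uridine, namely Lys-TTT, Glu-TTC and Gln-TTG, 0 of 10 were called, with a median of 0.12. Both lists include tRNA-Lys sums already given above, so they are not separate from them. The mitochondrial lysine tRNA, encoded apart from the nuclear ones, had 143 sequences at 868, 139 and 67.7 CPM in hypoxia and 904, 196 and 250 CPM in normoxia, lower in 3 of 3 pairs and overlapping. Neither of its 2 sums was called.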

How the data were processed

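The deposited values are raw counts of reads per distinct sequence, not normalized, per the file headers and the whole numbers in the table. Per the labels' protocols, total RNA was extracted with TRIzol and treated with enzymes before small RNA libraries were made. The mouse build is mm10, per the submitters' processing notes. How reads were aligned, annotated to tRNAs and filtered is not given in the sources used here. Columns of per-sample values matched 1 library each by name.

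The major forms were assembled from the members by extending overlaps of 12 nt up to a set length of 76 nt, and members were placed on them with at most 3 mismatches. CPM is counts per 1000000 of each library's tsRNA counts. tsRNAs, and counts summed by tRNA source and class, were tested over the whole table with edgeR 4.0.16 in R 4.3.3 (quasi-likelihood test, TMM scaling, low counts removed by filterByExpr with the groups, p adjusted by Benjamini and Hochberg's method with a threshold of 0.05). Alternatives included limma 3.58.1 with voom and the Wald test of DESeq2 1.42.0. For sums and shares, exact permutation tests (two-sided) were run with Python 3.11.15 and SciPy 1.17.1. Only the edgeR test with the group alone was checked on simulated counts. These had no replicate effect and a dispersion below the 0.706 of the tsRNA table, so the check does not show what could be found at the spread of these data. The fit with the block and the exact tests were not checked this way. A further 19 sequences with 1951 counts, annotated to tRNA-Lys and to another tRNA, were left out.

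Same-numbered libraries deviated together from their group means (correlations 0.810, 0.533 and 0.451), so the numbers were taken to pair the samples. These group means include the libraries numbered 1, which stand apart in both groups. The correlation was -0.03 among replicates 2 and 3 alone, so the values show no pairing of libraries 2 and 3 by number. For these libraries the counts of pairs follow the numbers only. The labels do not say what a number marks. In fits with the group alone, p-values rest on the spread between the 3 libraries of a group.

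Named tsRNAs are the 3 with the highest mean CPM per anticodon in each class (CCA and 3' ends together), and the 3 higher and 3 lower with the smallest unadjusted p and a mean of at least 10 CPM, 1 per overlapping family. The members, lists and rules were chosen with earlier results of these data known, and the comparisons of CTT with TTT and the sums over end positions were chosen after their values were seen.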

Additional observations from a re-analysis of the deposited data

How the results depend on the processing

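No tRNA-Lys tsRNA and no tRNA-Lys sum was called at an adjusted p under 0.05 with other scalings, other filters, DESeq2, limma voom, the replicate block, any library left out, or replicates 2 and 3 alone. The whole table held calls in some of these settings. With replicates 2 and 3 alone, 13 of 269 sums and 1 of 6498 tsRNAs were called. With the block, 10 of 6452 tsRNAs were called, and 12 of 6452 with the block and DESeq2 size factors. Because no tRNA-Lys hypoxia contrast passed a threshold, the alternatives below bear on directions only, and the cause of each change was not tested.

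Leaving out 1 library gave log2 ratios of the summed levels from -0.12 to 0.017 for all tRNA-Lys, from -0.34 to 0.15 for CTT, from -0.11 to 0.23 for TTT, from -0.17 to 0.41 for the 5' end class, from -0.72 to 0.35 for the internal class, from -2.76 to 3.76 for the 3' end class without CCA, from -0.15 to 0.072 for the CCA class and from -0.71 to -0.14 for the shared sequences. It gave differences in share, in percentage points, from -9.29 to 15.7 for the 5' end class, from -0.227 to 0.16 for the CCA class, from -15.2 to 8.32 for the internal class, from -6.63 to 5.88 for fragments of at least 30 nt, from -6.92 to 4.94 for CTT among single-anticodon counts and from -0.591 to 0.477 for 5' fragments ending in the anticodon loop. The direction turned in 14 of 48 such values for levels and in 14 of 36 for shares, and leaving out any of the 6 libraries turned at least 1 of them. With replicates 2 and 3 alone the log2 ratio was 0.081 for all tRNA-Lys, 0.10 for CTT and 0.10 for the CCA class, each with the sign turned, and the share differed by 0.065 points for CCA, 0.368 for at least 30 nt and 0.702 for CTT. Counting each sequence with at least 10 counts as 1 turned the difference for CCA to 0.0606, for at least 30 nt to 0.196 and for ends in the anticodon loop to 3.00 points.

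Replicate block: the mean log2 ratio within pairs was -0.056 for all tRNA-Lys, -0.11 for CTT and 0.050 for TTT, 0 tsRNAs and 0 sums of tRNA-Lys were called with the block, and it changed no call. Among named tsRNAs, with the log2 fold change of the group-only fit in brackets, CTT 1-35 (-0.020) had 0.050 with library totals, 0.073 with voom, 0.069 with the replicate block and 0.034 with the block and DESeq2 size factors; CTT 20-57 (-0.39) had 0.19 with voom, 0.13 with the replicate block, 0.098 with the block and DESeq2 size factors and 0.50 with replicates 2 and 3; TTT 1-19 (-0.0095) had 0.022 with library totals, 0.026 with no filter, 0.022 with voom and 0.017 with the replicate block; TTT 1-20 (0.047) had -0.041 with voom, -0.036 with the replicate block and -0.071 with the block and DESeq2 size factors; TTT 50-72 (0.023) had -0.034 with DESeq2 size factors, -0.037 with DESeq2, -0.091 with voom, -0.13 with the replicate block, -0.17 with the block and DESeq2 size factors and -0.23 with replicates 2 and 3; TTT 5-19 (-0.18) had 0.051 with library totals. The CTT 3' end sum (0.12) had -0.018 with library totals. Without 1 library, the log2 fold change ran from -0.060 to 1.19 for CTT 1-15, from -0.74 to 0.28 for CTT 1-19, from -0.40 to 0.33 for CTT 1-35, from -0.48 to 0.35 for CTT 61-76, from -0.58 to 0.25 for CTT 62-76, from -0.62 to 0.067 for CTT 60-76, from -1.84 to 1.96 for CTT 20-57, from -0.12 to 0.59 for CTT 21-56, from -0.37 to 0.35 for TTT 1-19, from -0.25 to 0.50 for TTT 1-15, from -0.34 to 0.50 for TTT 1-20, from -0.14 to 0.62 for TTT 62-76, from -0.14 to 0.54 for TTT 61-76, from -0.033 to 0.51 for TTT 60-76, from -1.90 to 1.71 for TTT 50-72 and from -0.73 to 0.13 for shared 11-25. For the sums it ran from -1.38 to 2.43 for CTT 3' end without CCA, from -0.20 to 0.81 for CTT 5' end, from -0.36 to 0.18 for CTT CCA, from -2.32 to 3.30 for TTT 3' end without CCA, from -0.32 to 0.52 for TTT 5' end and from -0.099 to 0.66 for TTT CCA. The 6 sequences chosen by p in each direction kept their direction throughout; TTT 31-46 had no value under the filter of 10 counts in 3 libraries.

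The 8 differences in makeup between CTT and TTT kept their direction without each library and with replicates 2 and 3 alone, where the smallest p allowed is 0.0625 and 0.125. With the replicate numbers as 3 units, a replicate block added after seeing the data, the direction also held and the smallest p allowed is 0.25, so that none of the 8 passed 0.05. Depth limits the weaker fragments most in normoxia 1, where 3 counts equal 9.07 CPM.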

Other observations

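A set of CTT fragments ending at position 28, at the foot of the anticodon stem, was lower in hypoxia in 3 of 3 pairs. These 16 sequences summed to 1022, 230 and 227 CPM in hypoxia, against 1167, 511 and 693 CPM in normoxia, with hypoxia over normoxia ratios of 0.876, 0.449 and 0.327 in pairs 1, 2 and 3. The groups overlapped through hypoxia 1, and the two-sided exact permutation test gave p = 0.5. The 8 TTT sequences with that end had 139, 33.9 and 57.2 CPM in hypoxia and 145, 57.7 and 65.7 CPM in normoxia. Position 28 was picked after its values were seen, and the cause of the difference was not tested.

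Fragments with an incomplete tail, ending in the C or CC of the CCA at 74 or 75, were counted in the internal class. How these ends arose was not tested. For CTT these fragments had 613, 109 and 103 CPM in hypoxia and 671, 109 and 89.6 CPM in normoxia. For TTT they had 684, 166 and 225 CPM in hypoxia and 456, 166 and 169 CPM in normoxia. In both tRNAs the libraries numbered 1 were the highest of their group.

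Among CTT 5' fragments long enough to show position 29, G29 had a share of 31.1%, 30.6% and 25.2% in hypoxia and 30.5%, 29.4% and 29.2% in normoxia. Among internal fragments it had 17.9%, 20.98% and 21.1% in hypoxia and 16.9%, 20.4% and 20.2% in normoxia. The share was higher among the 5' fragments than among the internal ones in 6 of 6 libraries, a difference for which no test was run.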
